A study of Sus scrofa with 105 samples.

Results

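miR-132 and miR-212 are a pair of neuronal microRNAs, and both were followed here across injury, treatment and brain region in piglets. They were taken from a deposited table of raw counts as the 2 entries named ssc-miR-132 and ssc-miR-212, of 542 entries in all, which stand for 457 mature names and 448 miRNAs once entries holding the same reads are merged. Each name had 1 entry. Their abundance is given as CPM, the count per 1000000 counts of the library after TMM scaling (a correction for differences in composition between libraries), and as the count of miR-212 per 100 counts of miR-132 in the same library.

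miR-132 and miR-212 are cut from a single primary transcript whose promoter binds CREB, a transcription factor switched on by synaptic activity, calcium and the growth factor BDNF. They belong to 1 family because they share the seed, the bases with which a microRNA recognises its targets. In neurons the pair is known for effects on dendrites, synapses and the timing of the circadian clock. In the RefSeq annotation of pig assembly Sscrofa11.1 the genes MIR132 and MIR212 are neighbours with 0 annotated genes between them, and OVCA2 and HIC1 lie on either side.

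The libraries held small RNA of formalin-fixed, paraffin-embedded brain. The donors were female piglets (Sus scrofa), used as a model of diffuse traumatic injury in children, injury spread through the brain rather than focal. There were 105 libraries of 53 animal codes, 52 from the frontal lobe and 53 from the hippocampus sampled with the amygdala, and 52 codes gave both regions. Sham or naive animals (18 in each region) form 1 labelled group that spans a survival of 0 to 8 days and received no drug. Injured animals without drug were studied at 1 day (10 in each region) or at 1 week, 6 to 8 days after injury (15 in each region). A further injured group was treated with cyclosporine A (CsA), an immunosuppressant that blocks calcineurin, and gave 9 frontal and 10 hippocampus-amygdala libraries. They received 20 mg/kg per day intravenously, with a loading dose 6 hours after injury and then an infusion of 24 hours, and survived 30 hours. No injured animals without drug were studied at 30 hours and none of the drug-treated animals was uninjured, so CsA and the longer survival cannot be told apart in the comparison with 1 day. The series text speaks of 50 subjects against these 53 codes, so the numbers of animals given here are uncertain, and if codes are not animals the p-values measure only the spread between these samples.

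The median library total was 7257404 counts (range 98008 to 12703535), and 3 sham libraries were under 1000000. Totals were not even across groups: the frontal median was 4679652 counts in sham, 9866050 at 1 day, 8438371 with CsA and 6816575 at 1 week. In the hippocampus-amygdala these medians were 5365075, 9223635, 9243073 and 6861927. The smallest library, frontal sham replicate 15, held 5 counts of miR-132 and 0 of miR-212, which allows up to 46.7 CPM of miR-212 at 3 counts, a limit of counting error only. Neuronal microRNAs were abundant in the tissue: in sham, miR-124a, which marks neurons, averaged 10105 CPM (frontal lobe) and 8722 CPM (hippocampus-amygdala).

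miR-132 was the more abundant of the pair. It averaged 174 CPM over the frontal libraries, 104th of 284 miRNAs tested there, and 111 CPM in the hippocampus-amygdala, 116th of 290. miR-212 averaged 11.0 and 8.90 CPM, 203rd and 204th in these orders. The counts behind miR-212 were low: under 30 were read in 6 of 18 frontal sham libraries, 9 of 18 hippocampus-amygdala sham libraries and 4 of 15 libraries at 1 week in each region, and in none at 1 day or with CsA. miR-132 fell under 100 counts in 1 frontal and 3 hippocampus-amygdala sham libraries.

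At 1 day after injury miR-212 was about double its sham level in both regions, while miR-132 from the same transcript did not pass the test. In the frontal lobe miR-212 was 12.8, 16.0 and 19.4 CPM (lowest, median and highest) at 1 day, against 0, 8.19 and 18.5 CPM in sham. All 10 libraries at 1 day were above the sham median, and 1 of 18 sham libraries was above the lowest of them. The mean was 16.1 ± 2.20 CPM (SD, n = 10) against 7.79 ± 3.99 (SD, n = 18), a 1.94-fold increase (edgeR quasi-likelihood test, log2 0.95, SE 0.23, adjusted p = 0.000873). Within codes beginning 12 or 13 it was 0.68 and not called (edgeR adjusted p = 0.240). The 1.94-fold change was the third largest increase of 284 miRNAs tested by log2 fold change, in a comparison where 44.7% of them passed the test and 18.7% were higher. By p-value miR-212 was 44th of 284. At 1 week against sham, where it did not pass, it was likewise 5th of 284 by log2 fold change.

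miR-132 in the frontal lobe was 151, 169 and 212.2 CPM (lowest, median, highest) at 1 day and 77.7, 183 and 234 CPM in sham. The groups overlapped over most of their range, and 1 of 10 libraries at 1 day exceeded the sham median. The edgeR log2 difference was -0.067 (95% interval -0.26 to 0.13, adjusted p = 0.595), so an increase as large as that of miR-212 lay outside the interval.

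In the hippocampus-amygdala miR-212 was 8.23, 11.4 and 17.2 CPM (lowest, median, highest) at 1 day and 1.10, 5.45 and 12.8 CPM in sham. Again all 10 libraries at 1 day were above the sham median, but 6 of 18 sham libraries were above the lowest of them. The mean rose 1.92-fold, from 6.03 ± 3.44 (SD, n = 18) to 12.4 ± 2.92 CPM (SD, n = 10; edgeR, log2 0.94, SE 0.25, adjusted p = 0.00219). This was the sixth largest of 290 by log2 fold change and 61st by p-value. In this comparison 48.6% of the miRNAs tested passed and 28.3% were higher. The miR-212 call there was lost with log10 library total as a covariate (edgeR, log2 0.52, adjusted p = 0.127) and within each of 2 strata of animal codes (0.99 and 0.69, edgeR adjusted p = 0.0746 and 0.130). miR-132 was 72.1, 111 and 139 CPM (lowest, median, highest) at 1 day and 76.0, 113 and 152 CPM in sham, ranges that nearly coincided. Its edgeR log2 difference was -0.045 (95% interval -0.28 to 0.19, adjusted p = 0.764).

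**Figure D1:**
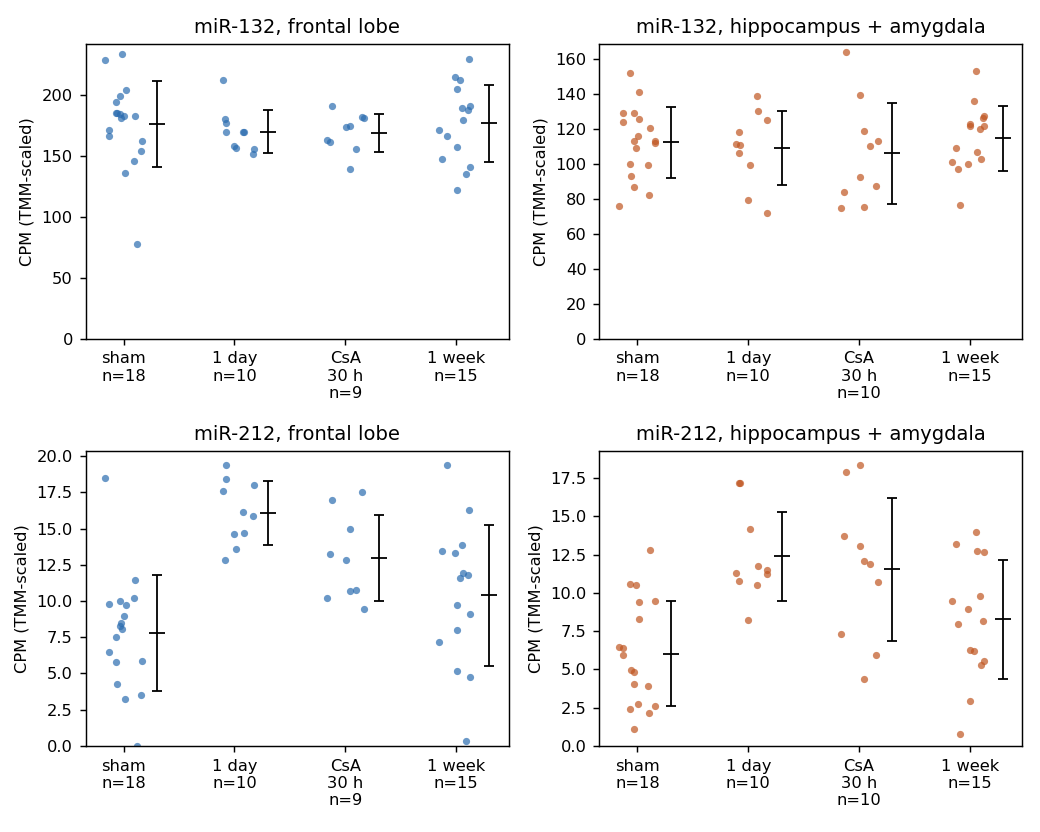
CPM (y axis, TMM-scaled within each region) of miR-132 (top) and miR-212 (bottom) in each library, by group, with the mean and SD in black; n is the number of libraries. miR-132 overlaps between all groups of a region, while the 10 frontal miR-212 values at 1 day lie between 12.8 and 19.4 CPM, with 1 sham library above the lowest.

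The ratio of miR-212 to miR-132 was higher at 1 day than in sham in both regions. Both counts are of the same library, so scaling between libraries does not enter it. In the frontal lobe there were 7.10, 9.36 and 11.6 counts of miR-212 per 100 of miR-132 (lowest, median, highest) at 1 day and 0, 4.29 and 8.09 in sham. Only 2 of 18 sham libraries had a log2 ratio above the lowest at 1 day; 1 of them was sham replicate 15, whose 5 and 0 counts give a high log2 ratio solely through the 0.5 added to each count. The mean log2 ratio was 1.08 higher (SE 0.15, 2.12-fold; permutation test, 2-sided, adjusted p = 2.00e-04 over 10 comparisons).

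In the hippocampus-amygdala the ratio was 7.57, 10.2 and 16.2 per 100 (lowest, median, highest) at 1 day and 1.27, 4.89 and 10.6 in sham. The highest sham libraries reached the 1-day range, with 4 of 18 above its lowest value, and 4 of 10 libraries at 1 day exceeded every sham library. The log2 ratio was 1.22 higher (SE 0.21, 2.33-fold; permutation test, adjusted p = 0.00045).

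**Figure D2:**
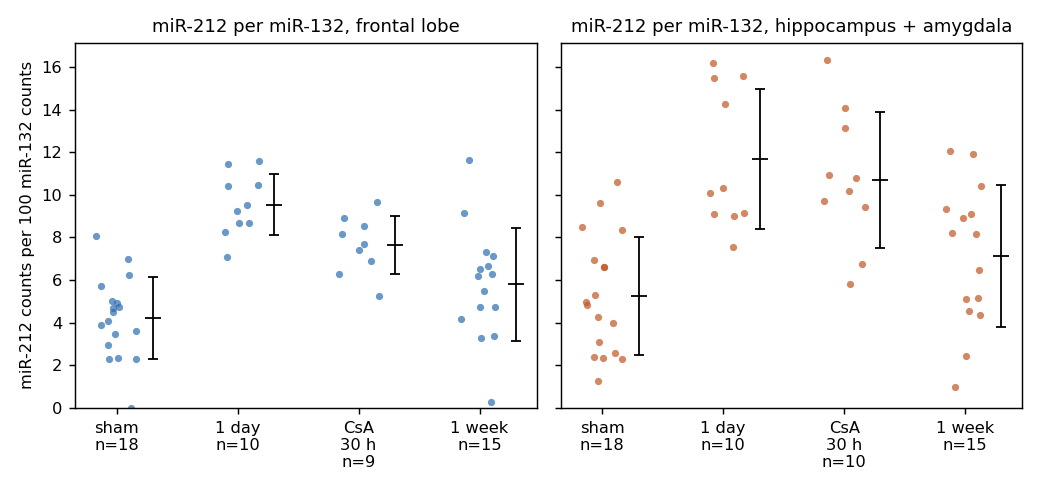
Counts of miR-212 per 100 counts of miR-132 in each library (y axis) by group and region, with the mean and SD in black. The frontal means were 4.22 in sham, 9.53 at 1 day, 7.65 with CsA and 5.80 at 1 week; those of the hippocampus-amygdala were 5.25, 11.7, 10.7 and 7.15.

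With CsA at 30 hours miR-212 was also above sham in both regions, and miR-132 did not pass. In the frontal lobe the 9 CsA libraries held 17.0, 9.48, 12.8, 13.2, 14.9, 10.8, 10.7, 17.5 and 10.2 CPM of miR-212. All 9 were above the sham median of 8.19 CPM and none was above the highest sham library. The mean of 13.0 ± 2.98 CPM (SD, n = 9) was 1.56-fold that of sham (edgeR, log2 0.65, SE 0.24, adjusted p = 0.0343); 34.2% of the miRNAs tested passed in this comparison and 14.8% were higher. That call was lost when any of 5 single libraries was left out (frontal CsA replicate 1, 4, 5 or 8, or sham replicate 3), with edgeR adjusted p up to 0.0766. Frontal miR-132 with CsA was 139, 173 and 191 CPM (lowest, median, highest), within the sham range (edgeR, log2 -0.075, 95% interval -0.28 to 0.13, adjusted p = 0.585).

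In the hippocampus-amygdala miR-212 with CsA was 4.39, 12.0 and 18.4 CPM (lowest, median, highest). Of the 10 libraries 9 were above the sham median and 4 above every sham library, while 11 of 18 sham libraries were above the lowest CsA library. The mean of 11.5 ± 4.67 CPM (SD, n = 10) was 1.79-fold that of sham (edgeR, log2 0.84, SE 0.25, adjusted p = 0.0149), where 20.3% of the miRNAs tested passed and 11% were higher. With log10 library total as a covariate miR-212 with CsA passed against sham in neither region (edgeR, log2 0.40 in each, adjusted p = 0.258 and 0.398). miR-132 was 75.1, 102 and 164 CPM (edgeR, log2 -0.088, 95% interval -0.32 to 0.14, adjusted p = 0.595).

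The ratio with CsA lay between sham and 1 day in the frontal lobe. It was 5.25, 7.70 and 9.67 per 100 (lowest, median, highest), and 8 of 9 CsA libraries had a log2 ratio below the 1-day median. Against sham the log2 ratio was 0.76 higher (SE 0.16; exact permutation test, adjusted p = 0.00285), and against 1 day it was -0.32 (SE 0.11; exact permutation test, adjusted p = 0.0147). miR-212 itself, at 16.1 CPM at 1 day and 13.0 CPM with CsA, did not pass between these groups (edgeR, log2 -0.31, 95% interval -0.85 to 0.23, adjusted p = 0.931), in a comparison where 0% of 284 miRNAs passed by edgeR or by DESeq2 and 12 had an unadjusted p under 0.05 by edgeR.

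In the hippocampus-amygdala the ratio with CsA was 5.83, 10.5 and 16.3 per 100 (lowest, median, highest), nearly the range at 1 day. Against sham the log2 ratio was 1.09 higher (SE 0.22; permutation test, adjusted p = 0.0008), and against 1 day it was -0.13 (SE 0.19; permutation test, adjusted p = 0.549). miR-212 between CsA and 1 day had an edgeR log2 difference of -0.10 (95% interval -0.66 to 0.46, adjusted p = 0.861). Here 0% of 290 miRNAs passed by edgeR, 7 by DESeq2, and 69 had an unadjusted p under 0.05 by edgeR. Whether the ratio differed between CsA and 1 day by another amount in the frontal lobe than in the hippocampus-amygdala was not tested.

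At 1 week neither member passed against sham. Frontal miR-212 was 0.37, 11.6 and 19.4 CPM (lowest, median, highest) at 1 week, a wider span than at 1 day that covered nearly all of the sham range. Its edgeR log2 difference from sham was 0.35 (95% interval -0.075 to 0.78, adjusted p = 0.900), in a comparison where 0% of 284 miRNAs passed by edgeR, 1 passed by DESeq2 and 19 had an unadjusted p under 0.05 by edgeR. In the hippocampus-amygdala miR-212 was 0.75, 8.17 and 14.0 CPM, with an edgeR log2 difference of 0.40 (95% interval -0.069 to 0.86, adjusted p = 0.742); 0.345% of 290 miRNAs passed there. miR-132 was 122, 179 and 229 CPM in the frontal lobe and 76.4, 120 and 153 CPM in the hippocampus-amygdala (edgeR log2 difference from sham -0.011, adjusted p = 0.998, and 0.027, adjusted p = 0.912).

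Between 1 day and 1 week miR-212 fell in the frontal lobe by 0.60 on the log2 scale (SE 0.24, edgeR adjusted p = 0.0415), and 10 of 15 libraries at 1 week were below the lowest at 1 day. In that comparison 35.9% of the miRNAs tested passed and 12.7% were lower. The call was lost in 11 of 25 fits that left out 1 library (1-day replicate 1, 3, 5, 6, 7 or 9, or 1-week replicate 1, 2, 4, 11 or 13), with edgeR adjusted p up to 0.0676. In the hippocampus-amygdala the log2 difference of -0.54 did not pass (SE 0.26, edgeR adjusted p = 0.0939; 29.3% of miRNAs passed and 17.6% were lower). miR-132 passed in neither region (edgeR log2 0.056, adjusted p = 0.653, and 0.072, adjusted p = 0.642). The log2 ratio fell between 1 day and 1 week by 0.93 in the frontal lobe (SE 0.29; permutation test, adjusted p = 0.00408) and by 0.85 in the hippocampus-amygdala (SE 0.26; permutation test, adjusted p = 0.0107). With 1 library left out at a time these differences ran from -1.02 to -0.68 and from -0.92 to -0.68, and kept their calls. Frontal 1-week replicate 5, with 1 count of miR-212, had the lowest frontal log2 ratio at 1 week, -7.93.

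Against sham the ratio at 1 week did not pass in either region. It was 0.27, 6.21 and 11.6 per 100 (lowest, median, highest) in the frontal lobe and 0.99, 8.16 and 12.1 in the hippocampus-amygdala. The log2 differences were 0.15 (SE 0.32; permutation test, adjusted p = 0.670) and 0.37 (SE 0.29; permutation test, adjusted p = 0.250). With 1 library left out at a time the first ran from 0.060 to 0.41 and never passed (permutation test, adjusted p from 0.0577 to 0.871). The second passed when hippocampus-amygdala 1-week replicate 14 was left out (log2 0.54, permutation test, adjusted p = 0.0467). The 1-day, 1-week and CsA differences from sham share the sham libraries.

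The lowest and the highest ratios at 1 week came from the same animals in both regions. The animal with frontal replicate 5 and hippocampus-amygdala replicate 14 had 1 count of miR-212 (95% Poisson interval 0.025 to 5.57) beside 366 of miR-132 in the first and 2 (0.24 to 7.22) beside 203 in the second. These libraries held 3514530 and 3652500 counts in all. The animal with frontal replicate 15 and hippocampus-amygdala replicate 5 had 160 counts of miR-212 beside 1374 and 170 beside 1407, or 11.6 and 12.1 per 100. Across the 15 animals at 1 week, log2 miR-212 in the hippocampus-amygdala followed that in the frontal lobe (Pearson r = 0.921, permutation p = 0.00016, adjusted p = 0.00192; Spearman rho = 0.821, permutation p = 0.00036, adjusted p = 0.00432, over 12 relations). Without the 2 animals farthest from the frontal median r was 0.804. At 1 week miR-212 also rose with library total by rank (Spearman rho = 0.643 frontal, 0.711 hippocampus-amygdala). The part of library totals in the relation of miR-212 between regions was not tested.

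The log2 ratio at 1 week was also related between regions (Pearson r = 0.846, permutation p = 0.0011, adjusted p = 0.0066; Spearman rho = 0.682, permutation p = 0.00682, adjusted p = 0.0409). Leaving out the 2 farthest animals gave r = 0.574. miR-132 was not (Pearson r = 0.118, permutation p = 0.673, adjusted p = 0.717; Spearman rho = -0.050, permutation p = 0.860, adjusted p = 0.860). In the other groups no relation between regions passed for either member or the ratio. miR-212 had r = 0.719 with CsA (9 animals; rho = 0.717; exact permutation p = 0.0269 and 0.0369, adjusted p = 0.107 and 0.111; r = 0.557 without the 2 farthest) and r = 0.440 in sham (18 animals; rho = 0.507; permutation p = 0.0893 and 0.0322, adjusted p = 0.268 and 0.111). At 1 day it was 0.284 (10 animals; rho = 0.273; permutation p = 0.432 and 0.452, adjusted p = 0.576 and 0.677). Whether the relation at 1 week differs from those of the other groups was not tested. The ratio at 1 week followed library total in the hippocampus-amygdala (Spearman rho = 0.789) and did not pass in the frontal lobe (rho = 0.354). The part of library totals in its relation between regions was not tested either.

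Library totals moved with the groups, so the members were also fitted beside them. Within groups, miR-212 rose with log10 total in the hippocampus-amygdala at 1 week (Pearson r = 0.701, permutation p = 0.00152, adjusted p = 0.0122; Spearman rho = 0.711, permutation p = 0.00396, adjusted p = 0.0238; over 24 relations; r = 0.683 without the 2 farthest totals). The ratio did so there as well (Pearson r = 0.749, permutation p = 0.00094, adjusted p = 0.0113; Spearman rho = 0.789, permutation p = 0.0008, adjusted p = 0.0096; r = 0.703 without the 2 farthest totals). Frontal miR-132 at 1 week followed the total too (Pearson r = 0.880, permutation p = 8e-05, adjusted p = 0.00192; Spearman rho = 0.832, permutation p = 0.00022, adjusted p = 0.00528; r = 0.869 without the 2 farthest totals). In frontal CsA, miR-212 passed by rank (9 animals; Pearson r = 0.761, exact permutation p = 0.0159, adjusted p = 0.0708; Spearman rho = 0.900, exact permutation p = 0.00203, adjusted p = 0.0162; r = 0.633 without the 2 farthest totals). The ratio there did so too (Pearson r = 0.711, exact permutation p = 0.0414, adjusted p = 0.106; Spearman rho = 0.817, exact permutation p = 0.0108, adjusted p = 0.0459), but r was 0.376 without the 2 farthest totals. Frontal miR-212 at 1 week also passed by rank (Pearson r = 0.571, permutation p = 0.0278, adjusted p = 0.0835; Spearman rho = 0.643, permutation p = 0.0115, adjusted p = 0.0459; r = 0.670 without the 2 farthest totals). In hippocampus-amygdala sham miR-212 passed by Pearson's r (r = 0.638, permutation p = 0.0068, adjusted p = 0.0408; Spearman rho = 0.499, permutation p = 0.0362, adjusted p = 0.124; r = 0.581 without the 2 farthest totals). The other 17 relations passed by neither coefficient. Among them, in frontal sham the ratio had r = -0.288 and rho = -0.0031 with the total (permutation p = 0.245 and 0.990, adjusted p = 0.368 and 0.990), and r was 0.255 without the 2 farthest totals.

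**Figure D3:**
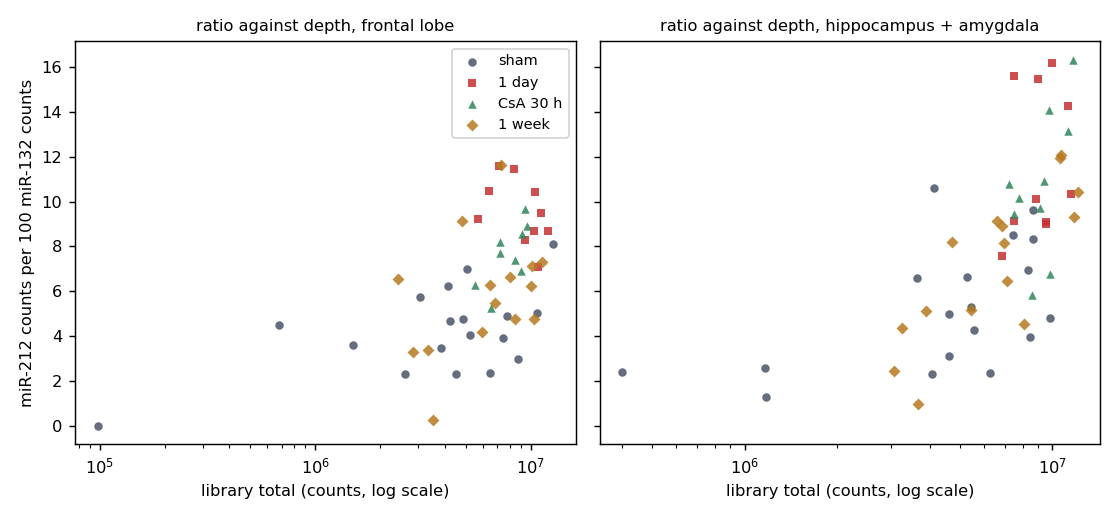
Counts of miR-212 per 100 of miR-132 (y axis) against the library total on a log scale (x axis), 1 point per library, with shape and color giving the group. Sham libraries reach down to 98008 counts, and no library at 1 day or with CsA is under 5531753 counts.

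With log10 total as a covariate, miR-212 at 1 day still passed in the frontal lobe (edgeR, log2 0.66, adjusted p = 0.0368) and no longer in the hippocampus-amygdala (log2 0.52, adjusted p = 0.127). Frontal miR-132 then passed as lower at 1 day (edgeR, log2 -0.25, adjusted p = 0.0368). The ratio with log10 total taken out, an adjustment chosen after seeing the data, still passed. The log2 difference from sham was 1.08 and 0.76 at 1 day and 0.76 and 0.62 with CsA, in the frontal lobe and the hippocampus-amygdala (permutation test, adjusted p = 2.00e-04, 0.0078, 0.00574 and 0.0203). The frontal values are those found without the adjustment. The fitted frontal slope included sham replicate 15, whose high log2 ratio comes solely from the 0.5 added to each count. The frontal adjustment thus cannot show how much of the difference goes with the total. The permutation took each slope as known, so these p-values leave out its uncertainty. Group and total overlap in these data, and the part of the total in the miR-212 differences cannot be fully told apart from that of injury.

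Animal codes begin with different digits, whose meaning the labels do not give, and the groups do not share them evenly. Among codes beginning 11, the log2 ratio at 1 day minus sham was 1.03 in the frontal lobe (5 against 6 animals; exact permutation test, adjusted p = 0.0317 over 16 comparisons) and 1.28 in the hippocampus-amygdala (adjusted p = 0.0616). Among codes beginning 12 or 13 it was 0.89 and 1.06 (5 against 5 animals; exact permutation test, adjusted p = 0.0317 in each). The ratio was thus higher at 1 day in both strata and both regions, by 0.89 to 1.28. The strata differed in depth. Among codes beginning 11 the median total was 7133780 counts at 1 day and 2839270 in sham (frontal lobe), and 8841280 and 3844460 (hippocampus-amygdala). Among codes beginning 12 or 13 these medians were 10309700 and 8767440, and 9982250 and 8670680. The part of the total within codes was not tested. CsA minus sham gave 0.51 and 1.19 among codes beginning 11 (exact permutation test, adjusted p = 0.159 and 0.0727) and 0.71 and 0.88 among codes beginning 12 or 13 (adjusted p = 0.0423 in each).

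The frontal ratio of CsA against 1 day was -0.51 among codes beginning 11 (4 against 5 animals; exact permutation test, adjusted p = 0.0544) and -0.17 among codes beginning 12 or 13 (5 against 5; adjusted p = 0.201), so it did not pass within either. miR-212 at 1 day minus sham was 0.92 among frontal codes beginning 11 (edgeR, adjusted p = 0.0112) and 0.99 among those of the hippocampus-amygdala (adjusted p = 0.0746). Among codes beginning 12 or 13 it was 0.68 and 0.69 (edgeR, adjusted p = 0.240 and 0.130), where 0 miRNAs passed in either region by edgeR and 49 and 59 had an unadjusted p under 0.05. DESeq2 was not run within codes.

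For the 1-week comparison the strata were codes beginning 10 or 11 and codes beginning 14 to 17. Among the latter, frontal miR-212 was 11.8 ± 2.97 CPM at 1 week (SD, n = 9) and 6.72 ± 2.65 CPM in sham (SD, n = 6; edgeR, log2 0.82, SE 0.23, adjusted p = 0.0136; 23.7% of 270 miRNAs passed). The log2 ratio was 0.76 higher there (exact permutation test, adjusted p = 0.0160), and 0.60 higher in the hippocampus-amygdala (exact permutation test, adjusted p = 0.0583). Among codes beginning 10 or 11, which include the animal with 1 and 2 counts, the ratio differed by -0.37 (frontal lobe) and 0.35 (hippocampus-amygdala) (6 against 7 animals; exact permutation test, adjusted p = 0.711 and 0.645). The difference between these strata was not tested.

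**Figure D4:**
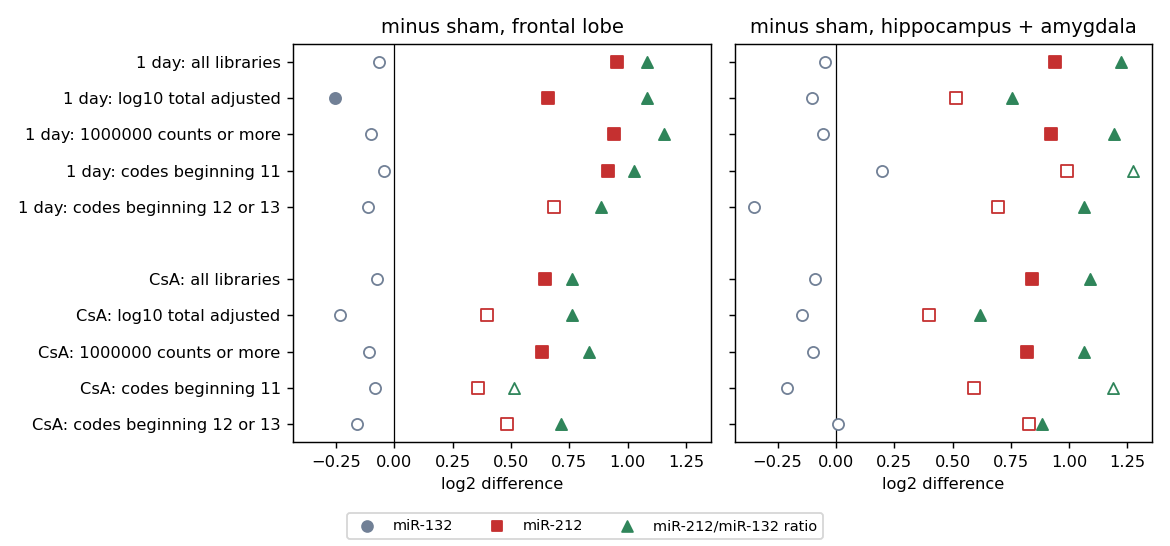
Log2 difference from sham (x axis) of miR-132 (grey circles), miR-212 (red squares) and their ratio (green triangles) at 1 day and with CsA, under the settings on the y axis; filled symbols had an adjusted p under 0.05. miR-212 and the ratio lie above 0 at all settings shown, and miR-132 lies between -0.35 and 0.20.

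Both members were lower in the hippocampus-amygdala than in the frontal lobe of the same animals. miR-132 was lower there in 17 of 18 sham animals, 10 of 10 at 1 day, 14 of 15 at 1 week and 9 of 9 with CsA. These counts of animals, and those for miR-212 below, compare CPM that were TMM-scaled within each region separately. The fit for the log2 differences scaled both regions together. The log2 differences, from an edgeR fit with the animal as a block, were -0.73 in sham (SE 0.08, adjusted p = 1.67e-10), -0.76 at 1 day (SE 0.11, adjusted p = 2.24e-07), -0.67 at 1 week (SE 0.09, adjusted p = 1.15e-08) and -0.77 with CsA (SE 0.12, adjusted p = 1.98e-07). The share of 298 miRNAs that passed as lower in the hippocampus-amygdala was 25.5% in sham, 21.5% at 1 day, 21.8% at 1 week and 28.2% with CsA, out of 47.3%, 46.6%, 43% and 57% that passed in either direction.

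miR-212 followed with smaller differences. It was lower in the hippocampus-amygdala in 13 of 18 sham animals, 9 of 10 at 1 day, 11 of 15 at 1 week and 6 of 9 with CsA. In the blocked edgeR fit it passed in sham (log2 -0.43, SE 0.14, adjusted p = 0.0109), at 1 day (-0.50, SE 0.16, adjusted p = 0.00829) and at 1 week (-0.37, SE 0.14, adjusted p = 0.0300), and not with CsA (-0.31, SE 0.17, adjusted p = 0.125). The 1-week call was lost without 1-week animal 8, 10, 14 or 15, numbered as the frontal replicates (edgeR adjusted p up to 0.0832), and the CsA difference passed without CsA animal 3 (log2 -0.41, edgeR adjusted p = 0.0460). Without the replicate block the 3 calls were lost, at -0.43, -0.48 and -0.37 (edgeR adjusted p = 0.131, 0.180 and 0.233). In bulk tissue, fewer cells that express a microRNA and less of it per cell cannot be told apart.

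**Figure D5:**
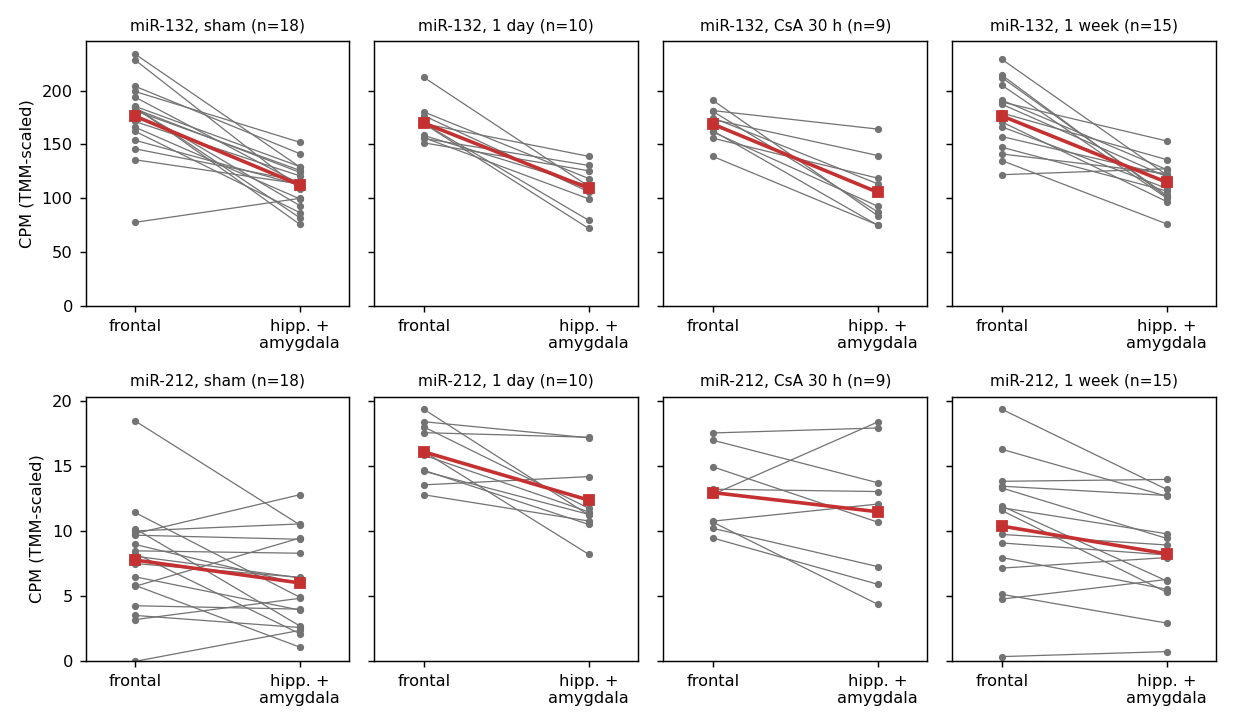
CPM (y axis, scaled within each region) of miR-132 (top) and miR-212 (bottom) in both regions of each animal, joined by grey lines, by group; red squares are the means. miR-132 falls from frontal lobe to hippocampus-amygdala in nearly every animal (17 of 18 in sham), and the miR-212 lines cross more often.

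No difference between regions in the response to injury was detected. The interaction of region with 1 day minus sham was -0.028 for miR-132 (95% interval -0.30 to 0.25) and -0.072 for miR-212 (-0.50 to 0.36) on the log2 scale, with edgeR adjusted p of 0.994 and 0.977. For 1 week minus sham it was 0.055 and 0.053, and for CsA minus sham -0.036 and 0.12 (edgeR adjusted p from 0.737 to 1.000). By edgeR 0% of 298 miRNAs passed in any of the 3 interactions, with 9, 8 and 73 at an unadjusted p under 0.05; DESeq2 was not run on them. The log2 ratio was higher in the hippocampus-amygdala of 12 of 18 sham animals, 7 of 10 at 1 day, 11 of 15 at 1 week and 8 of 9 with CsA, by 0.12, 0.26, 0.34 and 0.44. None of these passed (permutation test over animals, exact for all groups but sham, adjusted p = 0.536, 0.122, 0.0823 and 0.0823). The 1-week value passed without animal 1, 3 or 8 (permutation test, adjusted p = 0.0469), and the CsA value without animal 7 (0.54, exact permutation test, adjusted p = 0.0313).

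By its group means the ratio had the same order in both regions: sham lowest, then 1 week, CsA and 1 day. By medians CsA (10.5 per 100) stood above 1 day (10.2 per 100) in the hippocampus-amygdala. Of neighbours in that order, sham and 1 week did not pass in either region, and CsA and 1 day passed in the frontal lobe alone. 1 week and CsA were not compared. For miR-132 the group means spanned 169 to 176 CPM in the frontal lobe and 106 to 115 CPM in the hippocampus-amygdala, with no pair of those compared passing.

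Within single groups the correlation of the pair passed in 2 of 8 combinations of group and region, by Pearson's r alone. In frontal sham, log2 CPM of miR-132 and miR-212 had Pearson r = 0.881 (18 animals, permutation p = 0.00098, adjusted p = 0.00784 over 8 relations) and Spearman rho = 0.414 (permutation p = 0.0887, adjusted p = 0.177). Without the 2 farthest libraries r was 0.440, so the value rested on them. With CsA in the hippocampus-amygdala r was 0.773 (10 animals, permutation p = 0.00486, adjusted p = 0.0194; rho = 0.673, permutation p = 0.0383, adjusted p = 0.148; 0.616 without the 2 farthest). In the 6 other combinations of group and region r ran from 0.178 to 0.564 and none passed after adjustment.

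Pooled over the groups as deviations from group means, miR-212 was the fifth most similar of 283 miRNAs to miR-132 in the frontal lobe (r = 0.728 over 52 libraries) and the fifth of 289 in the hippocampus-amygdala (r = 0.507 over 53 libraries). In the frontal lobe miR-505 (r = 0.744), miR-885-5p (0.743), miR-146b (0.742) and miR-30c-5p (0.739) came before it. In the hippocampus-amygdala miR-7-5p (0.669), miR-128 (0.571), miR-135 (0.531) and miR-138 (0.516) did. Seen from miR-212, the most similar were miR-1271-5p (0.831), miR-130b-5p (0.810), miR-885-5p (0.782), miR-493-3p (0.754) and miR-505 (0.747) in the frontal lobe, with miR-132 in place 10. In the hippocampus-amygdala they were miR-505 (0.773), miR-138 (0.713), miR-323 (0.693), miR-181c (0.693) and miR-221-5p (0.665), with miR-132 in place 31. These points share libraries and depth, and the correlations are a description.

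Of a list of 13 other microRNAs known to respond to neuronal activity or to act at synapses, 9 were measured. The list was chosen with earlier results of these data known, so its counts are a description. They were not taken with the total as a covariate, where calls at 1 day over all miRNAs fell from 127 to 56 (frontal lobe) and from 141 to 57 (hippocampus-amygdala). At 1 day 5 of 9 were higher and 1 lower in the frontal lobe, and 7 of 9 higher and 1 lower in the hippocampus-amygdala. Of all miRNAs tested 18.7% were higher and 26.1% lower in the first region, and 28.3% and 20.3% in the second. The median log2 difference was 0.29 against -0.040 over all miRNAs tested in the first and 0.40 against 0.065 in the second. miR-29a-3p rose 1.303-fold and 1.33-fold in these regions (edgeR adjusted p = 0.00181 and 0.0050). miR-138, a microRNA of dendritic spines, rose 1.23-fold and 1.17-fold (edgeR adjusted p = 0.0183 and 0.0340), and miR-181a 1.22-fold and 1.45-fold (edgeR adjusted p = 0.0468 and 0.00246).

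With CsA against sham 4 of these 9 were higher and 1 lower in the frontal lobe (median 0.40 against 0.022 over all tested), and 2 higher and 0 lower in the hippocampus-amygdala (0.25 against 0.019). The shares over all miRNAs tested were 14.8% higher and 19.4% lower in the frontal lobe, and 11% and 9.31% in the hippocampus-amygdala. miR-138 passed in neither region there (edgeR log2 0.15 and 0.067, adjusted p = 0.277 and 0.616). At 1 week against sham, and with CsA against 1 day, 0 of 9 passed in either region. Between 1 day and 1 week 1 was higher and 1 lower in the frontal lobe, and 5 were lower and 0 higher in the hippocampus-amygdala. Of all miRNAs tested 23.2% were higher and 12.7% lower in the first, and 11.7% and 17.6% in the second.

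Markers of the cell types in the tissue are given beside the miR-212 difference, to be read against the shares of all miRNAs tested, which at 1 day were 18.7% higher and 26.1% lower in the frontal lobe, and 28.3% and 20.3% in the hippocampus-amygdala. With CsA these shares were 14.8% and 19.4%, and 11% and 9.31%. Of 9 measured neuron-enriched miRNAs 1 was higher and 2 lower in the frontal lobe and 2 higher and 2 lower in the hippocampus-amygdala, where the median log2 difference was -0.15 and -0.024. Of the 3 most abundant members in each region, miR-124a fell to 0.723 and 0.797 of sham (edgeR adjusted p = 0.000356 and 0.0150) and the other two did not pass. These were miR-7-5p at 1.09-fold and miR-128 at 1.003-fold in the frontal lobe, and miR-7-5p at 1.03-fold and miR-149 at 0.971-fold in the hippocampus-amygdala (edgeR adjusted p from 0.440 to 0.964). The summed neuron-enriched level was 30741 to 37679 CPM at 1 day and 32103 to 45771 CPM in sham in the frontal lobe, and 38317 to 47162 and 37154 to 55315 CPM in the hippocampus-amygdala. With CsA 1 of 9 was higher and 1 lower in the frontal lobe and 1 higher in the hippocampus-amygdala.

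Of 3 oligodendrocyte markers 2 were lower at 1 day in the frontal lobe; in the hippocampus-amygdala 0 passed, with summed levels of 1143 to 1858 CPM at 1 day and 1069 to 2581 CPM in sham in the first and 683 to 1065 and 679 to 1288 CPM in the second. With CsA 1 and 2 of them were lower. Of 7 microglia and leukocyte markers 0 passed at 1 day in the frontal lobe (503 to 709 CPM against 450 to 675 CPM in sham) and 4 were higher in the hippocampus-amygdala (438 to 704 against 402 to 546 CPM). With CsA 1 was higher (frontal lobe) or 0 (hippocampus-amygdala). Of 4 endothelial and mural markers 2 were higher at 1 day in each region (9148 to 12729 against 4711 to 12801 CPM, and 6981 to 13637 against 4480 to 9122 CPM), and with CsA 2 and 0.

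Of the erythrocyte markers 1 of 2 measured was lower at 1 day in the frontal lobe and 1 of 3 higher in the hippocampus-amygdala, with sums of 41.6 to 148 against 49.5 to 312 CPM and 69.4 to 241 against 103 to 294 CPM. With CsA 1 was higher and 1 lower in the frontal lobe and 1 higher in the hippocampus-amygdala. Of 2 choroid plexus markers measured 1 was higher at 1 day and with CsA in the frontal lobe and 0 passed in the hippocampus-amygdala. Their sums at 1 day were 171 to 304 against 46.6 to 324 CPM in sham in the frontal lobe and 232 to 2582 against 111 to 1735 CPM in the hippocampus-amygdala. The ranges of each list's summed level overlapped sham at 1 day, and with CsA too, in both regions, and the part of these cell types in the miR-212 difference was not tested.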

How the data were processed

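The deposited values are raw whole-number counts of each mature pig miRNA in each library. Trimmomatic 0.39 and cutadapt 1.9.1 were used, per the submitters' processing notes. Libraries were made with a QIAseq miRNA kit, per the labels' protocols. Not given in the sources used here are the aligner, annotation, build and use of molecular identifiers, so counts need not be independent molecules and intervals cover counting error only. Of repeated entries of a mature name, and of names with totals of at least 100 that differed by under 0.01 of the larger, the entry with the highest total was kept. This put miR-9 and miR-218 under copies of another name, outside the neuron list.

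Counts were tested by quasi-likelihood in edgeR 4.0.16 under R 4.3.3 (TMM, filterByExpr with a minimum count of 10 and total of 15, robust fit, all 4 groups of a region in 1 fit), with Benjamini-Hochberg adjustment over all miRNAs of a comparison at 0.05, and the script was tested on simulated data. Regions were compared over 52 animals with the animal as a block, since the labels' library names carry the animal code. As a check, deviations from group means were correlated between the regions of an animal over 280 miRNAs, with a median of 0.273 (over 0.1 in 38 of 52 animals) against -0.0031 for other animals. The lowest value within an animal was -0.395. Only 9 of 52 frontal libraries were most similar to the hippocampus-amygdala library of their own code, so the check is weak for single animals. The ratio is log2 of (miR-212 count + 0.5) over (miR-132 count + 0.5), tested 2-sided by permutation (100000 resamples, or exact with fewer than 10 animals in a group) over 10 comparisons. CPM for correlations is log2 with a prior count of 2. The SE of a ratio difference is from the group SDs.

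Alternatives were DESeq2 1.42.0, RLE size factors, no low-count filter, no merging, let-7 left out, libraries of at least 1000000 counts, the total as a covariate, codes apart, other pseudocounts, a rank sum, no block and single libraries left out. Beside the members, miRNAs named are the 5 most similar to each and the 3 most abundant of a list where described. Members and lists were chosen with earlier results of these data known. All table columns were mapped by name.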

Additional observations from a re-analysis of the deposited data

Results flagged for a closer look

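Frontal injured 1 day replicate 1 held 212.2 CPM of miR-132, apart from the other 9 libraries of its group, of which the next held 180.1 CPM; the gap was 0.528 of the group's range. It was the only one set apart among 12 sets of values of 4 to 10 libraries examined, and chance sets apart about 1 in 20. Leaving out single libraries of the comparison left the log2 difference of frontal miR-132 between 1 day and sham at -0.087 to -0.025, without a call.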

How the results depend on the processing

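miR-132 was called lower in the hippocampus-amygdala in all 4 groups under each alternative run. The frontal 1-day ratio kept its call throughout (log2 0.89 to 1.23), as did the ratio of 1 week against 1 day in both regions (-0.97 to -0.32). The frontal 1-day call of miR-212 held with the total as a covariate and within codes beginning 11, and was lost within codes beginning 12 or 13. Its other calls against sham at 1 day and with CsA were lost with the total as a covariate and within codes. Within codes the differences and the number of animals both changed. Low counts limit miR-212 in single libraries: 1 count of it was read in 3 and 0 in 1. Not all of these were shallow. Frontal 1-week replicate 5 held 1 count of miR-212 in 3514530, and frontal 1-week replicate 3 held 14 in 2419150.

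With log10 total as a covariate miR-212 lost its call in the hippocampus-amygdala at 1 day (0.52), with CsA against sham (0.40 in both regions) and in the frontal lobe for 1 week against 1 day (-0.46), frontal miR-132 at 1 day was called (-0.25), and uncalled miR-132 changed sign for frontal CsA against 1 day (0.021) and hippocampus-amygdala 1 week against sham (-0.0012). Counts of miRNAs called fell from 127 to 56 (frontal 1 day), 97 to 20 (frontal CsA against sham), 141 to 57 (hippocampus-amygdala 1 day), 59 to 2 (CsA against sham there) and 1 to 0 (1 week there). The cause was not tested.

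Codes beginning 11 alone lost the calls of miR-212 with CsA against sham (0.36 frontal, 0.59 hippocampus-amygdala) and at 1 day in the hippocampus-amygdala (0.99), and of the ratio for frontal CsA against 1 day (-0.51) and sham (0.51) and hippocampus-amygdala 1 day (1.28) and CsA (1.19) against sham; miR-132 there changed sign at 1 day (0.20). Codes beginning 12 or 13 lost miR-212 at 1 day (0.68 and 0.69) and with CsA against sham (0.48 and 0.83) and the frontal ratio of CsA against 1 day (-0.17). In the hippocampus-amygdala signs changed for CsA against 1 day (miR-132 0.44, miR-212 0.21) and against sham (miR-132 0.00999). These fits hold other codes and fewer animals, and the cause was not tested. Counts called were 11 of the former 97 (frontal CsA against sham, codes 11), 17 where all animals gave 0 (hippocampus-amygdala CsA against 1 day, codes 11) and 0 in place of 127, 97, 141 and 59 (1 day and CsA against sham, codes 12 or 13). At 1 week against sham, codes 14 to 17 gave calls for frontal miR-212 (0.82) and the ratio (0.76), 64 frontal miRNAs against 0 and 20 against 1 in the hippocampus-amygdala, and frontal miR-132 at 0.085; codes 10 or 11 gave a frontal ratio of -0.37, miR-132 of -0.0030 in the hippocampus-amygdala and 0 calls there.

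Other sign changes were of uncalled values near 0. Frontal miR-132 at 1 day was 0.0087 with RLE size factors and 0.018 without let-7; for 1 week against 1 day it was -0.0093 with DESeq2, -0.015 with RLE and -0.031 without let-7; for 1 week against sham it was 0.016 without merging and 0.0073 without the filter. The hippocampus-amygdala ratio of CsA against 1 day was 0.035 as a difference of medians, and the interaction of miR-212 with 1 week was -0.012 in libraries of at least 1000000 counts. Without the replicate block the animal pairing was dropped, and miR-212 between regions lost its calls (-0.43 sham, -0.48 at 1 day, -0.37 at 1 week) and the interaction of miR-132 with CsA was 0.0049. DESeq2 called 1 miRNA against 0 (frontal 1 week against sham), 3 against 1 (that comparison in the hippocampus-amygdala) and 7 against 0 (CsA against 1 day there); without the filter or merging the 1 call was 0.

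Leaving out 1 library or animal at a time gave miR-212 -0.69 to -0.53 (frontal 1 week against 1 day), 0.58 to 0.77 (frontal CsA against sham), -0.18 to 0.029 (hippocampus-amygdala CsA against 1 day), and between regions -0.46 to -0.31 (1 week) and -0.41 to -0.18 (CsA). miR-132 ran from -0.042 to 0.027 (frontal 1 week against sham), -0.055 to 0.013 (frontal CsA against 1 day), and in the hippocampus-amygdala -0.11 to 0.0086 (1 day), -0.0081 to 0.060 (1 week against sham) and -0.097 to 0.036 (CsA against 1 day). The ratio ran from 0.29 to 0.54 (hippocampus-amygdala 1 week against sham), and between regions 0.25 to 0.41 (1 week) and 0.39 to 0.54 (CsA). Interactions ran from -0.10 to 0.028 and -0.20 to 0.0050 (1 day, miR-132 and miR-212), -0.024 to 0.086 and -0.073 to 0.13 (1 week) and -0.092 to 0.053 (CsA, miR-132).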
